A study of Mus musculus with 6 samples.

Results

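The genes described here encode the receptors through which classical fast transmitters and serotonin act: GABA, glycine, glutamate, acetylcholine and serotonin. They were taken by symbol from 6 tables of raw read counts, one per culture. A gene was kept if its symbol matched a receptor subunit or receptor of these transmitters and if at least 3 of the 6 tables held at least 10 counts for it. Of 89 matching symbols among 35976 listed genes, 65 met the minimum, and 64 of these passed the low-count filter of the test. By class, 12 of 19 GABA-A, 2 of 2 GABA-B, 4 of 4 AMPA, 6 of 8 NMDA, 5 of 5 kainate, 3 of 3 delta, 5 of 8 metabotropic glutamate, 1 of 5 glycine, 10 of 16 nicotinic, 4 of 5 muscarinic and 13 of 14 serotonin symbols were kept. Among the kept symbols of the delta class, 1 encodes a scaffold protein and not a receptor.

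The cultures came from dorsal root ganglia (DRG), which hold the cell bodies of the sensory neurons of the body. Ganglia from every lumbar level of wildtype C57BL/6 mice of both sexes, aged 2 to 3 months, were dissociated with dispase and collagenase. The cells were plated in medium with serum. Starting 24 h after plating, 3 cultures had HC-HA/PTX3 (15 µg/mL) in the medium for 24 h, and 3 had vehicle. HC-HA/PTX3 is a matrix complex purified from human amniotic membrane. The comparison asks which transcripts differ after a day with this complex. The number of mice behind each culture was not given in the sources used here, nor whether ganglia of several mice were mixed. No sorting step was described, and the labels call the samples DRG neurons, although markers of glia, fibroblasts and cycling cells were counted in all of them. As nothing says that the cultures came from separate animals, the p-values cannot stand for a spread between animals. They measure only a spread between cultures, in the main test what remains after differences between replicate numbers are taken out.

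Ionotropic receptors are ion channels that open when the transmitter binds. GABA-A, glycine, nicotinic and serotonin-gated channels are rings of subunits of a shared family, and GABA-A and glycine receptors pass chloride. AMPA, NMDA, kainate and delta receptors form the ionotropic glutamate family. Metabotropic receptors, such as GABA-B, the metabotropic glutamate, muscarinic and most serotonin receptors, act through G proteins. In sensory neurons, receptors of both kinds sit on the central terminals in the spinal cord, on the cell body and on peripheral endings, and set how strongly these neurons release their own transmitter, glutamate. Mature DRG neurons keep intracellular chloride high, so that GABA depolarizes their terminals.

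The vehicle libraries held 42516054, 42617496 and 54117547 counts and the treated libraries 37998071, 37434266 and 38420247, so the largest treated library was below the smallest vehicle library. Levels are given as CPM, the usual rate of counts relative to the library size, here after TMM scaling. In these units 3 counts, the floor used for a gene at 0, came to between 0.0536 and 0.0808 CPM. Cultures with the same replicate number deviated together from their group means. The test of treatment therefore carried the replicate number as a block. Where it matters, results are also given without both cultures of replicate 3, which stood apart from the others in both groups in glial markers.

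Compared per kilobase of exon, Gabbr1 was the most abundant receptor gene in every culture. Gabbr1, which encodes the subunit that binds GABA, averaged 54.1 CPM per kb over the 6 cultures (range 48.0 to 62.3). Gabbr2, the subunit that carries the partner to the surface and couples to G proteins, averaged 22.1 CPM per kb (range 16.2 to 30.1). Together they made up 31.2% of the summed CPM per kb of 63 receptor genes, a sum that leaves out Chrm4 and the scaffold gene. The kainate receptor gene Grik1 averaged 19.7 CPM per kb (range 15.3 to 28.4). It lay above Gabbr2 in cultures 1 and 2 of the vehicle group and in treated culture 1, and below it in the other 3. Without both cultures of replicate 3 the order of their means turned, to 20.8 CPM per kb for Grik1 and 18.8 for Gabbr2. Among the genes below both were Glrb at 10.8, Htr3a at 10.4, Grm7 at 9.76 and Chrnb2 at 9.23 CPM per kb, and the ranges of these 4 overlapped. The median tested gene with a known exon length lay at 4.48 CPM per kb, and 13 receptor genes lay above it, again without Chrm4. Exon lengths are those of all annotated transcripts of a gene joined, so a gene with a rare long transcript reads too low on this scale. For Chrm4 the annotation holds only 1440 bases of coding exon, so its level per kb reads too high and was not ranked.

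**Figure D1:**
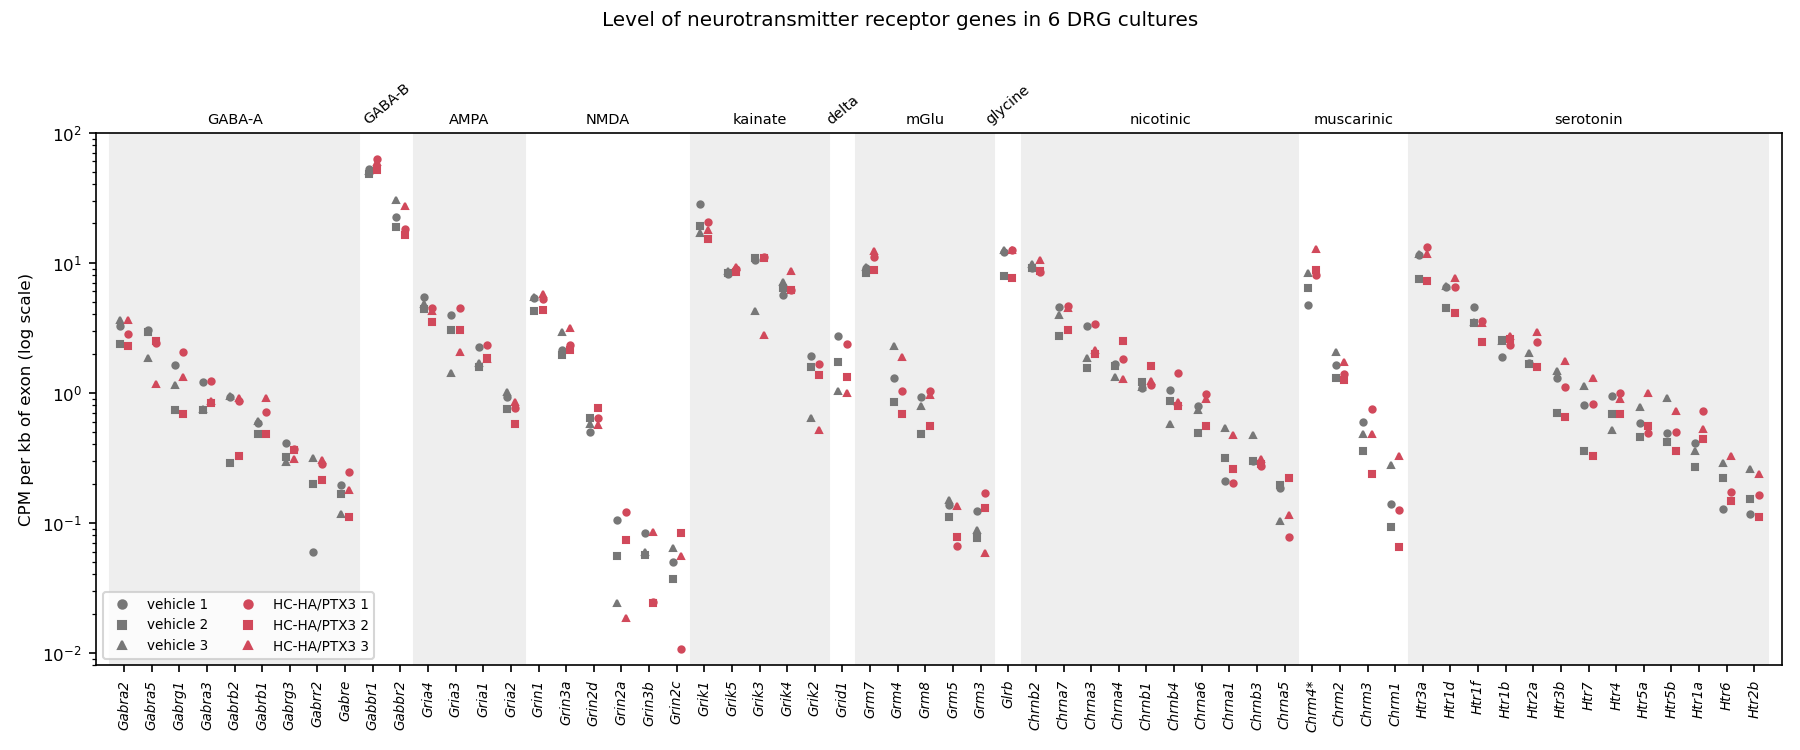
Level of receptor genes in each culture as CPM per kb of exon on a log axis, ordered within each transmitter class by the mean; grey marks are vehicle and red marks HC-HA/PTX3 cultures, with circles, squares and triangles for replicates 1, 2 and 3. Gabbr1 leads at 54.1 on average, and the asterisk marks Chrm4, whose annotated length is coding only.

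After HC-HA/PTX3, 2 of 64 tested genes passed the thresholds of the study's methods, which ask for an adjusted p below 0.05 and a log2 fold change beyond 0.5 either way (edgeR, Benjamini-Hochberg over 18277 genes). Both rose: Chrm4, a muscarinic acetylcholine receptor gene, and Htr1a, a serotonin receptor gene. This is 3.12% of the members tested, against 8.70% of all tested genes (1591; 607 higher and 984 lower, or 3.32% and 5.38%). The receptor genes were thus called at a share below the background when both directions are counted, and near it among higher calls. No receptor gene was called lower by edgeR, by DESeq2 or by limma-voom with the block, and ComBat-seq followed by limma called 1, Grm5. At an unadjusted p under 0.05 edgeR had 10 members lower and 5 higher. With the block, the share of all tested genes at this unadjusted p was not counted. Such counts, here and below, therefore have no background beside them. Without the block edgeR called 0 of 18277 genes (0%), and at an unadjusted p under 0.05 it had 1 of 64 members, Htr1a, against 11.4% of all tested genes. Leaving out both cultures of replicate 3 called the same 2 members. In bulk RNA, fewer cells of a type and less RNA per cell cannot be told apart.

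When the fold threshold was dropped, 7 of 64 members (10.9%) had an adjusted p under 0.05 in edgeR with the block, against 19.2% of all tested genes. Besides Chrm4 and Htr1a they include Grm7, higher, and Gabbr2 and Gria4, lower, all by less than 0.5 on the log2 scale. Without both cultures of replicate 3 none of these 3 had an adjusted p under 0.05 (edgeR, Benjamini-Hochberg, 0.0732 to 0.203), and without the block none of the 7 had. ComBat-seq with limma passed more members at any fold, among them Gria2, Grm4, Gabbr1 and Gabra5 (Benjamini-Hochberg adjusted p 0.00223, 0.00300, 0.00820 and 0.0130). DESeq2 passed fewer, and Gria4 and Htr1a missed there (Benjamini-Hochberg adjusted p 0.0586 and 0.0925). For these tools the share of all tested genes at any fold was not counted. The median log2 fold change of the members was 0.031, against -0.0067 over all tested genes, and the median absolute value was 0.18 against 0.19. Treated and vehicle levels did not overlap for 1 of the 64, Htr1a, against 18.0% of all tested genes.

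**Figure D2:**
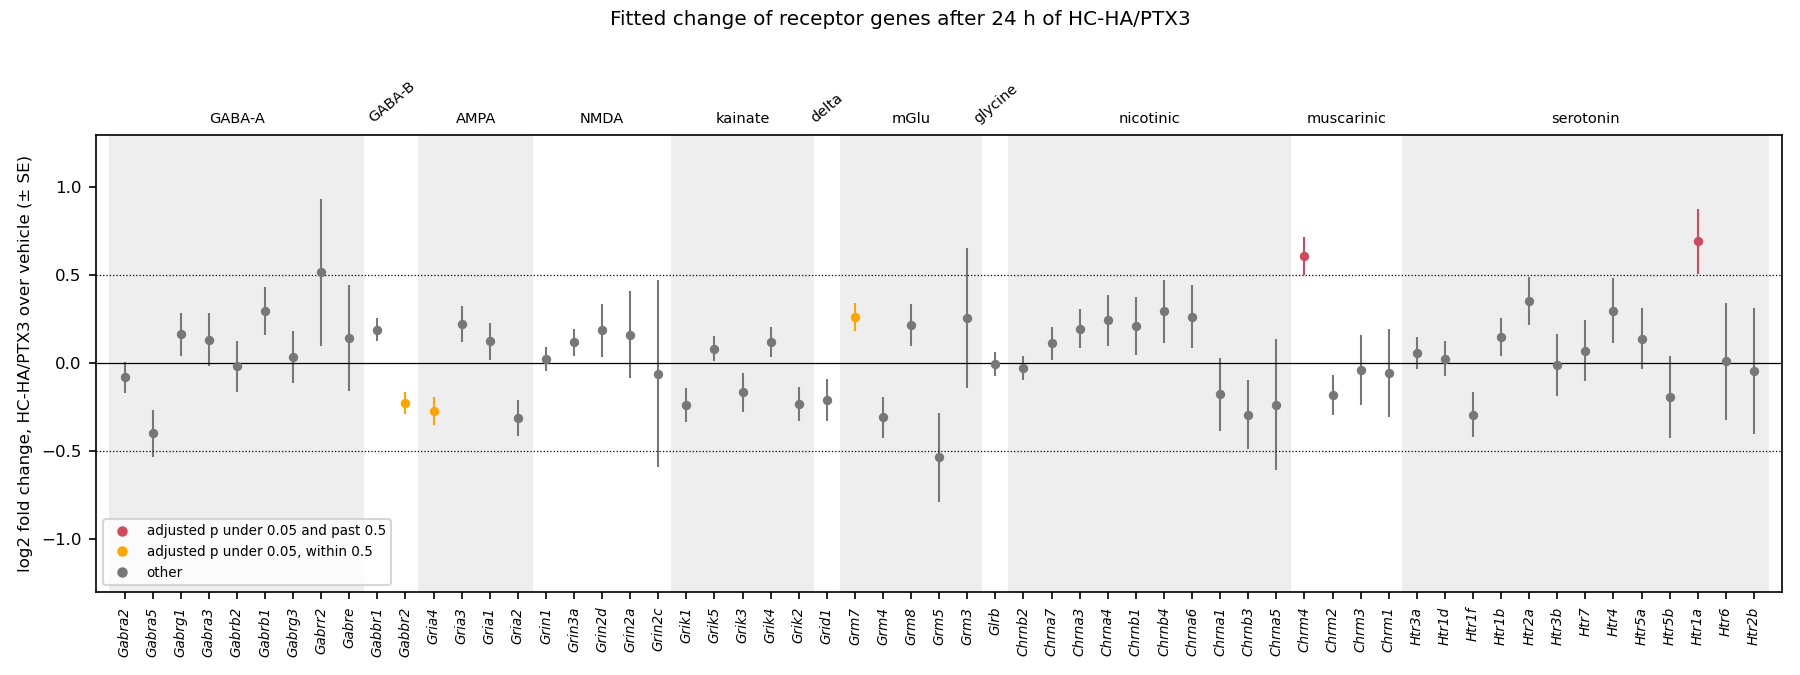
Log2 fold change of HC-HA/PTX3 over vehicle (points) with its standard error (bars) for receptor genes by transmitter class, from the fit with the replicate block; dotted lines mark 0.5 either way. Chrm4 and Htr1a (red) lie above the upper line with an adjusted p under 0.05, and the 3 genes in orange pass the adjusted p within the lines.

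GABA-A receptors are chloride channels of 5 subunits, most often with alpha, beta and gamma members. Of the 12 GABA-A genes tested, 0 were called by edgeR, as by DESeq2, limma-voom and ComBat-seq with limma. In edgeR 2 of them, both fitted lower, had an unadjusted p under 0.05. At an adjusted p under 0.05 and any fold DESeq2 had 0 and ComBat-seq with limma 2. Gabra2, an alpha subunit, stood at 25.1, 18.1 and 27.6 CPM in vehicle cultures 1, 2 and 3 and 21.7, 17.6 and 27.8 CPM in the treated cultures 1, 2 and 3. Culture 2 was the lowest of each group and the groups overlapped (log2 fold change -0.079, SE 0.088, edgeR, Benjamini-Hochberg adjusted p = 0.577). Of the summed alpha subunit level per kb, Gabra2 held 33.3%, Gabra5 26.0% and Gabra3 10.3%.

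Gabra5, an alpha subunit found largely outside synapses in the central nervous system, was measured at 9.01, 8.73 and 5.45 CPM in vehicle cultures 1, 2 and 3 and 7.17, 7.39 and 3.48 CPM in the treated cultures 1, 2 and 3. Culture 3 was the lowest of each group, and the groups overlapped (log2 fold change -0.40, SE 0.13, edgeR, Benjamini-Hochberg adjusted p = 0.0620). The fitted log2 fold changes of the class ran from -0.40 to 0.52, with 7 above and 5 below 0. The 7 GABA-A symbols below the count minimum were Gabra4, Gabra6, Gabrd, Gabrp, Gabrq, Gabrr1 and Gabrr3. Gabra6, a subunit of cerebellar granule cells, had 0 counts in all 6 tables.

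The GABA-B receptor works as a pair of different subunits. Gabbr2 was measured at 149, 126 and 201 CPM in vehicle cultures 1, 2 and 3 and 120.4, 108 and 181 CPM in the treated cultures 1, 2 and 3. Culture 3 was the highest of each group, the treated culture was lower in each of the 3 pairs, and the groups overlapped. The difference had an adjusted p under 0.05 but a fold below the threshold (log2 fold change -0.23, SE 0.062, edgeR, Benjamini-Hochberg adjusted p = 0.0306). Gabbr1 stood at 408, 372 and 394 CPM in vehicle cultures 1, 2 and 3 and 483, 397 and 464 CPM in the treated cultures 1, 2 and 3. Treated cultures were higher in each of the 3 pairs, the groups overlapped, and the difference missed the adjusted threshold (log2 fold change 0.19, SE 0.064, edgeR, Benjamini-Hochberg adjusted p = 0.0593). There were 2.74, 2.95 and 1.96 Gabbr1 counts per Gabbr2 count in vehicle cultures 1, 2 and 3 and 4.02, 3.66 and 2.56 in the treated cultures. This ratio, chosen after the values were seen, was higher with treatment in each pair, while the groups overlapped. An exact two-sided test that flips the sign within pairs gave p = 0.25, the smallest that 3 pairs allow, and an unpaired permutation test gave p = 0.3.

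Glycine receptors are chloride channels of alpha and beta subunits. The beta subunit gene Glrb, which links the channel to the scaffold protein gephyrin, was measured at 56.2, 36.8 and 58.3 CPM in vehicle cultures 1, 2 and 3 and 58.1, 35.4 and 58.1 CPM in the treated cultures 1, 2 and 3. Culture 2 was lowest in both groups and the groups lay over each other (log2 fold change -0.0042, SE 0.069, edgeR, Benjamini-Hochberg adjusted p = 0.975). None of the alpha subunit genes Glra1, Glra2, Glra3 and Glra4 reached the count minimum, and the highest count of any in any culture was 9. At this depth the alpha subunits, which carry most of the glycine binding site, were at or near the floor.

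AMPA receptors carry most fast excitatory transmission. Per kb, Gria4 held 44.2% of the summed AMPA level, Gria3 28.8%, Gria1 18.8% and Gria2, the subunit that makes the channel impermeable to calcium, 8.14%. Gria2 has a long annotated exon length, so its share reads low. Gria4 was measured at 34.0, 27.8 and 30.4 CPM in vehicle cultures 1, 2 and 3 and 28.0, 21.9 and 26.6 CPM in the treated cultures 1, 2 and 3. The treated culture was lower in each of the 3 pairs and the groups overlapped (log2 fold change -0.27, SE 0.080, edgeR, Benjamini-Hochberg adjusted p = 0.0406). Gria2 stood at 14.4, 11.7 and 15.9 CPM in vehicle cultures 1, 2 and 3 and 11.8, 9.00 and 13.2 CPM in the treated cultures 1, 2 and 3. It too was lower in each pair, with overlapping groups, and missed the adjusted threshold (log2 fold change -0.31, SE 0.10, edgeR, Benjamini-Hochberg adjusted p = 0.0569). Gria3 had 39.0, 30.0 and 14.1 CPM in vehicle cultures 1, 2 and 3 and 43.8, 29.9 and 20.3 CPM in the treated cultures 1, 2 and 3. Culture 3 was the lowest of each group, and the treatment difference did not pass (log2 fold change 0.22, SE 0.10, edgeR, Benjamini-Hochberg adjusted p = 0.161).

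NMDA receptors need glycine or D-serine as well as glutamate and contain the subunit encoded by Grin1. Grin1 led its class at 5.07 CPM per kb (61.1% of the class), followed by Grin3a (29.2%) and Grin2d (7.55%). Grin1 was measured at 51.8, 41.5 and 53.0 CPM in vehicle cultures 1, 2 and 3 and 51.3, 42.1 and 55.3 CPM in the treated cultures 1, 2 and 3, with the groups lying over each other (log2 fold change 0.024, SE 0.069, edgeR, Benjamini-Hochberg adjusted p = 0.846). For Grin3a, a subunit that lowers calcium entry, the values were 26.3, 24.1 and 35.6 CPM in vehicle cultures 1, 2 and 3 and 28.6, 26.2 and 38.6 CPM in the treated cultures 1, 2 and 3. They were higher in each treated culture than in its pair, with overlapping groups (log2 fold change 0.12, SE 0.077, edgeR, Benjamini-Hochberg adjusted p = 0.307). Grin2d averaged 3.81 ± 0.468 CPM in vehicle and 4.36 ± 0.669 CPM in treated cultures (SD, n = 3 each).

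The edge of the count minimum ran through the NMDA class. Just inside it, Grin3b had 11, 8 and 11 counts in the vehicle and 3, 3 and 11 in the treated cultures, and Grin2c had 10, 8 and 18 against 2, 16 and 11. Grin3b failed the low-count filter and was the only member without a test, and it overlaps Tmem259 on the opposite strand. Just outside, Grin2b, a subunit of young neurons, had 1, 2 and 22 counts in the vehicle and 0, 12 and 9 in the treated cultures. At counts this low a difference of the size seen elsewhere among the members may be missed.

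Kainate receptors act on both sides of the synapse, and sensory neurons of small diameter are known for channels that contain the Grik1 product. Grik1 was measured at 191, 128 and 113 CPM in vehicle cultures 1, 2 and 3 and 137, 103 and 121 CPM in the treated cultures 1, 2 and 3. The treated culture was lower in pairs 1 and 2 and higher in pair 3, and the groups overlapped (log2 fold change -0.24, SE 0.095, edgeR, Benjamini-Hochberg adjusted p = 0.110). Without both cultures of replicate 3 its log2 fold change was -0.38 (edgeR, Benjamini-Hochberg adjusted p = 0.00643), still short of the fold threshold. Grik5, a subunit that raises the affinity for glutamate and needs a partner, had 42.3, 42.7 and 44.4 CPM in vehicle cultures 1, 2 and 3 and 46.0, 43.5 and 47.7 CPM in the treated cultures 1, 2 and 3, a narrow range with overlapping groups (log2 fold change 0.084, SE 0.071, edgeR, Benjamini-Hochberg adjusted p = 0.444). Grik2 stood at 25.2, 20.7 and 8.39 CPM in vehicle cultures 1, 2 and 3 and 21.9, 18.1 and 6.81 CPM in the treated cultures 1, 2 and 3. Culture 3 was far below the others in both groups, and the treatment difference did not pass (log2 fold change -0.23, SE 0.094, edgeR, Benjamini-Hochberg adjusted p = 0.114). The class median log2 fold change was -0.16 with all cultures and 0.048 without both cultures of replicate 3.

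Delta receptors belong to the glutamate family by sequence but bind cerebellins, D-serine or glycine rather than glutamate. Grid1 stood at 16.2, 10.2 and 6.13 CPM in vehicle cultures 1, 2 and 3 and 14.2, 7.81 and 5.97 CPM in the treated cultures 1, 2 and 3. It was lower in each treated culture than in its pair and lowest in culture 3 of each group, with overlapping groups (log2 fold change -0.21, SE 0.12, edgeR, Benjamini-Hochberg adjusted p = 0.244).

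**Figure D3:**
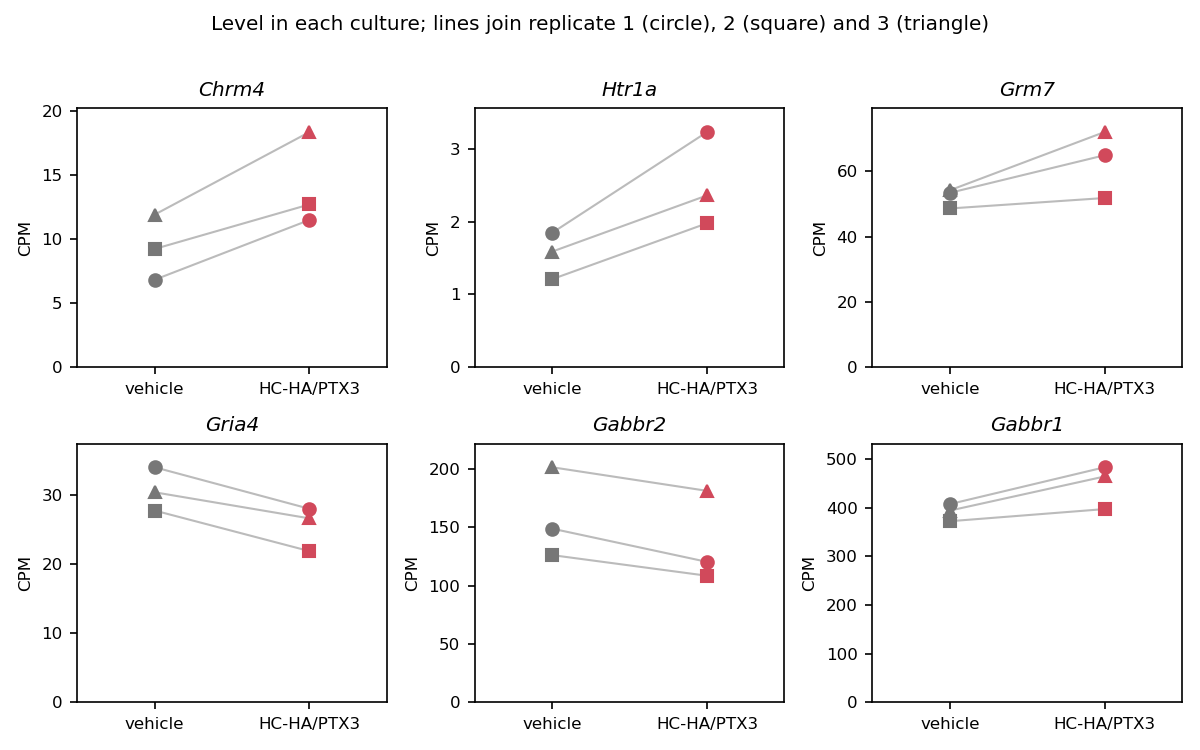
CPM in each culture for the called genes Chrm4 and Htr1a, the genes Grm7, Gria4 and Gabbr2 that passed the adjusted p at a smaller fold, and Gabbr1; lines join the vehicle (grey) and HC-HA/PTX3 (red) cultures of the same replicate number, and every axis starts at 0. All 3 lines run the same way in each panel, and only in the Htr1a panel does every treated culture lie above every vehicle culture.

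Among metabotropic glutamate receptors, the group that couples to inhibitory G proteins on nerve terminals was the one measured well: Grm7 held 80.9%, Grm4 10.8% and Grm8 6.46% of the summed class level per kb. Grm7 was measured at 53.4, 48.6 and 54.1 CPM in vehicle cultures 1, 2 and 3 and 64.9, 51.8 and 72.0 CPM in the treated cultures 1, 2 and 3. It was higher in the treated culture of each pair, and the groups overlapped since treated culture 2 lay below vehicle cultures 1 and 3. The adjusted p passed and the fold did not (log2 fold change 0.26, SE 0.078, edgeR, Benjamini-Hochberg adjusted p = 0.0393). Grm4 had 7.72, 5.05 and 13.6 CPM in vehicle cultures 1, 2 and 3 and 6.12, 4.06 and 11.2 CPM in the treated cultures 1, 2 and 3. Here culture 3 was the highest of each group, the treated culture was lower in each pair, and the test was not passed (log2 fold change -0.31, SE 0.12, edgeR, Benjamini-Hochberg adjusted p = 0.0953). Grm2 and Grm6 were below the count minimum, and Grm3 and Grm5 lay at or under 1.52 CPM in every culture. Grm5, named as the call of a single tool, had 1.40, 1.14 and 1.52 CPM in vehicle cultures 1, 2 and 3 and 0.674, 0.791 and 1.37 CPM in the treated cultures 1, 2 and 3, with overlapping groups (log2 fold change -0.53, SE 0.25, edgeR, Benjamini-Hochberg adjusted p = 0.168). With ComBat-seq and limma its Benjamini-Hochberg adjusted p was 0.0323.

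Nicotinic receptors are cation channels opened by acetylcholine. Of the 10 nicotinic genes tested, 0 were called by edgeR, as by DESeq2, limma-voom and ComBat-seq with limma, and 0 had an unadjusted p under 0.05 in edgeR. At an adjusted p under 0.05 and any fold DESeq2 had 0 and ComBat-seq with limma 2. Chrnb2 held 78.8% of the beta subunit level per kb, and Chrna7, which forms channels on its own, 42.3% of the alpha level, ahead of Chrna3 (25.2%) and Chrna4 (19.0%). Chrnb2 was measured at 76.6, 75.8 and 81.3 CPM in vehicle cultures 1, 2 and 3 and 70.5, 72.1 and 87.8 CPM in the treated cultures 1, 2 and 3. The groups lay over each other (log2 fold change -0.026, SE 0.069, edgeR, Benjamini-Hochberg adjusted p = 0.832), and Chrnb2 overlaps Adar, so that reads over both could not be told apart. Chrna7 had 20.6, 12.3 and 17.9 CPM in vehicle cultures 1, 2 and 3 and 20.7, 13.7 and 20.2 CPM in the treated cultures 1, 2 and 3. Culture 2 was lowest in each group, and the difference was small beside that between replicates (log2 fold change 0.11, SE 0.093, edgeR, Benjamini-Hochberg adjusted p = 0.431).

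Chrna3, a subunit of ganglionic receptors, stood at 17.2, 8.12 and 9.80 CPM in vehicle cultures 1, 2 and 3 and 17.7, 10.5 and 11.2 CPM in the treated cultures 1, 2 and 3. It was higher in each treated culture than in its pair and highest in culture 1 of both groups (log2 fold change 0.20, SE 0.11, edgeR, Benjamini-Hochberg adjusted p = 0.237). Chrna4 had 8.39, 8.10 and 6.63 CPM in vehicle cultures 1, 2 and 3 and 9.08, 12.6 and 6.45 CPM in the treated cultures 1, 2 and 3. Only treated culture 2 stood clearly above its pair (log2 fold change 0.24, SE 0.15, edgeR, Benjamini-Hochberg adjusted p = 0.271). The muscle-type genes Chrnd, Chrne and Chrng, the cochlear Chrna9 and Chrna10, and Chrna2 did not reach the count minimum, while Chrna1, the muscle alpha subunit, ranged from 0.889 to 2.36 CPM.

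Muscarinic receptors are G protein-coupled. Chrm2 and Chrm4 encode the types that lower cyclic AMP, and Chrm1, Chrm3 and Chrm5 those that raise intracellular calcium. Chrm4 was measured at 6.82, 9.22 and 11.9 CPM in vehicle cultures 1, 2 and 3 and 11.5, 12.7 and 18.3 CPM in the treated cultures 1, 2 and 3. Within each pair the treated culture was the higher, and culture 3 was the highest of each group. The groups overlapped, since vehicle culture 3 lay above treated culture 1. Chrm4 rose with a log2 fold change of 0.61 (SE 0.11, edgeR, Benjamini-Hochberg adjusted p = 0.00459), and without both cultures of replicate 3 with 0.62 (edgeR, Benjamini-Hochberg adjusted p = 0.00697). Without the block the call was lost (edgeR, Benjamini-Hochberg adjusted p = 0.447).

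In RefSeq, Chrm4 spans chr2:91922189-91929835 of GRCm38.p6 on the plus strand. Its last 31 bases overlap the end of Mdk, the gene of the growth factor midkine, on the minus strand. The strand setting of the counting was not given in the sources used here, so with this model reads over those bases could not be told apart. In GENCODE M21, Chrm4 spans only chr2:91927249-91928688 and overlaps no other gene. The methods of the study name an Ensembl mm10 transcriptome for the counting, and which model of Chrm4 it held could not be told. Mdk, named for the overlap in RefSeq, had 258, 291 and 172 counts in the vehicle and 290, 398 and 268 in the treated cultures, and it was also higher (log2 fold change 0.68, SE 0.16, edgeR, Benjamini-Hochberg adjusted p = 0.0179). Its part in the Chrm4 counts was not tested. Chrm2 was measured at 9.89, 7.84 and 12.5 CPM in vehicle cultures 1, 2 and 3 and 8.41, 7.60 and 10.5 CPM in the treated cultures 1, 2 and 3. It was lower in each treated culture than in its pair, with overlapping groups (log2 fold change -0.18, SE 0.11, edgeR, Benjamini-Hochberg adjusted p = 0.294). Chrm3 and Chrm1 stayed at or under 4.72 CPM in every culture, and Chrm5 had at most 1 count.

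Serotonin acts through a channel, built of the Htr3a and Htr3b products, and through several families of G protein-coupled receptors. Per kb, Htr3a held 90.2% of the channel level. Of the G protein-coupled types, Htr1d led with 33.7% of their summed level, then Htr1f (20.1%), Htr1b (14.2%) and Htr2a (11.6%). The first 3 of these couple to inhibitory G proteins and are the targets of the triptans. Htr1a, of the same inhibitory group and known as an autoreceptor of serotonin neurons, made up 2.60%.

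Htr1a was measured at 1.85, 1.21 and 1.59 CPM in vehicle cultures 1, 2 and 3 and 3.23, 1.98 and 2.36 CPM in the treated cultures 1, 2 and 3, from 74, 52 and 89 counts against 120, 75 and 93. Every treated culture lay above every vehicle culture, and culture 2 was the lowest of each group. Htr1a rose with a log2 fold change of 0.69 (SE 0.19, edgeR, Benjamini-Hochberg adjusted p = 0.0266). Without both cultures of replicate 3 it gave 0.78 (edgeR, Benjamini-Hochberg adjusted p = 0.0378). The call rested on few counts and on the fit: without the block (edgeR) the Benjamini-Hochberg adjusted p was 0.411, and with DESeq2 0.0925. It was also lost without either or both cultures of replicate 1 or of replicate 2, at log2 fold changes from 0.63 to 0.68 (edgeR, Benjamini-Hochberg adjusted p from 0.0689 to 0.159). With the block, a culture left without its partner adds no treated-to-vehicle difference. Leaving out either or both cultures of a replicate number is therefore nearly the same comparison.

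Htr2a, which couples to calcium release, stood at 9.44, 9.26 and 11.3 CPM in vehicle cultures 1, 2 and 3 and 13.7, 8.89 and 16.6 CPM in the treated cultures 1, 2 and 3. It was higher in pairs 1 and 3 and lower in pair 2, and did not pass (log2 fold change 0.35, SE 0.14, edgeR, Benjamini-Hochberg adjusted p = 0.0978). Without either or both cultures of replicate 2 it passed, at log2 fold changes from 0.535 to 0.542, all resting on pairs 1 and 3. Htr3a had 23.8, 15.5 and 24.3 CPM in vehicle cultures 1, 2 and 3 and 27.6, 15.0 and 24.4 CPM in the treated cultures 1, 2 and 3. Culture 2 lay far below the others in both groups, and the groups overlapped (log2 fold change 0.059, SE 0.092, edgeR, Benjamini-Hochberg adjusted p = 0.698). Htr1d was measured at 20.7, 14.3 and 21.3 CPM in vehicle cultures 1, 2 and 3 and 20.7, 13.1 and 24.3 CPM in the treated cultures 1, 2 and 3. It was likewise lowest in culture 2 of each group (log2 fold change 0.027, SE 0.10, edgeR, Benjamini-Hochberg adjusted p = 0.878). Of the 13 serotonin receptor genes, 9 had a fitted log2 fold change above 0 and 4 below, with a median of 0.059.

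Promoter windows of both called genes are shown since they moved the same way. They come from RefSeq (GRCm38.p6), which had a window for 47 of the 65 genes. Each is printed 5′ to 3′ up to the earliest annotated start of the gene. The Chrm4 window is chr2:91921939-91922188 and the Htr1a window chr13:105443443-105443638, both on the plus strand and upstream of the first exon. Capitals mark the GC box GGGCGG, the core of sites bound by Sp1-like factors, which was searched on both strands.
Chrm4: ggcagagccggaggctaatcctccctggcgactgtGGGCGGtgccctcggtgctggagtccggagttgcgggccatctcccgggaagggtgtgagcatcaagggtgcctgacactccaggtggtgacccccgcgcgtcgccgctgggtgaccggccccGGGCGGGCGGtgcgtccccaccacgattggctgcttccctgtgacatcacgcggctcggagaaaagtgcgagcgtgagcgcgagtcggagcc
Htr1a: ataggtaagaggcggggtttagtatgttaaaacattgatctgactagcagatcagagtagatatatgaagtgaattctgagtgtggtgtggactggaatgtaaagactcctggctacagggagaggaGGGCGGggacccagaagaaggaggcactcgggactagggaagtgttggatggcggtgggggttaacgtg
The Chrm4 window held 3 GC boxes, 2 of them overlapping, and the Htr1a window 1. Of 32851 promoter windows, 32.7% held at least 1 in 250 bases and 23.9% in 196 bases. The letters of the TATA box (TATAAA), the cAMP response element (TGACGTCA) and an E-box (CACGTG) were in neither window on either strand, and in 12.4%, 1.55% and 6.02% of windows of 250 bases. These matches describe the letters only.

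The receptor genes differed more between replicate numbers than between treatments. In a test of the replicate number in the same fit, chosen after the values were seen, 41 of 64 members (64.1%) had an adjusted p under 0.05 (edgeR, Benjamini-Hochberg), against 33.8% of all tested genes. The replicate number held a median of 83.1% of the variance of log2 CPM per member and the treatment 6.14%, against 59.0% and 17.7% over all tested genes. The replicate share was the larger for 58 of the 64 (90.6%), against 12998 of all 18277 (71.1%). Replicate numbers form more groups than treatments, so the replicate share tends to be the larger even where neither matters. These shares were not adjusted for that. Between cultures 1 and 2 alone, without replicate 3, 24 of 63 members (38.1%) differed against 12.4% of all tested genes. Without replicate 2 the counts were 18 of 65 (27.7%) against 23.1%, and without replicate 1 they were 36 of 64 (56.2%) against 28.0%. No test compared these shares.

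The direction of the replicate difference varied by gene. Of the 41 members, 28 (68.3%) were fitted higher in replicate 3 than in the mean of replicates 1 and 2, and 13 lower, against 2726 (44.1%) higher and 3454 lower of the 6180 tested genes that differed. The genes given next were chosen after their values were seen. Among the lowest in replicate 3 were Grin2a (log2 difference -1.97), Grik3 (-1.64), Grik2 (-1.49), Gria3 (-1.05) and Grid1 (-0.95). Other ionotropic glutamate receptor genes were fitted higher in replicate 3, such as Grin3a (0.50), Grik4 (0.36) and Gria2 (0.32). Grik3 stood at 94.0, 98.2 and 37.8 CPM in vehicle cultures 1, 2 and 3 and 99.0, 97.5 and 25.0 CPM in the treated cultures 1, 2 and 3. Both cultures of replicate 3 were far below the other 4. Highest in replicate 3 were Chrm1 (1.54), Htr7 (1.20), Grm4 (1.15) and Chrna1 (1.06). Gabrb2 had 5.89, 1.84 and 6.02 CPM in vehicle cultures 1, 2 and 3 and 5.52, 2.06 and 5.76 CPM in the treated cultures 1, 2 and 3, with replicate 2 lowest in both groups. Htr7 showed the same low replicate 2, at 1.21 and 1.11 CPM beside 3.82 and 4.44 CPM in replicate 3.

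**Figure D4:**
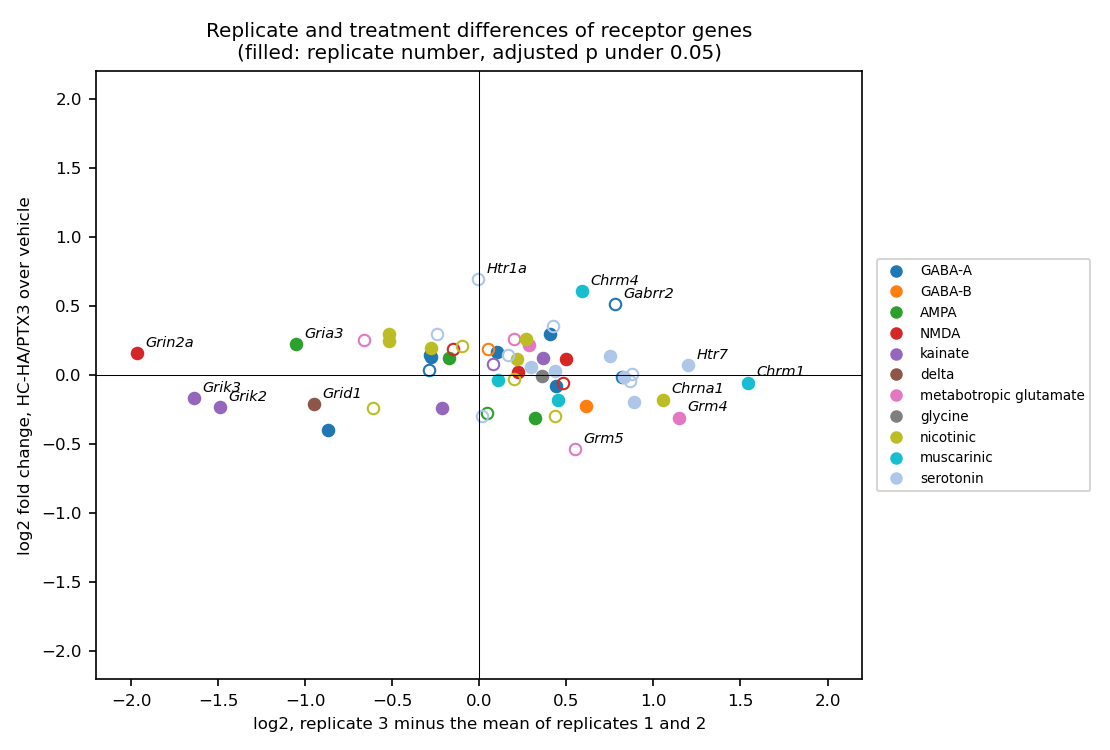
Each point is a tested gene, coloured by class; the horizontal axis is the fitted log2 difference of replicate 3 from the mean of replicates 1 and 2, the vertical axis the log2 fold change of HC-HA/PTX3 over vehicle, on the same scale. Points spread from -1.97 to 1.54 horizontally and from -0.53 to 0.69 vertically, and filled points passed the test of the replicate number.

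Markers of the cells in the dish moved with the replicates and, for some cell types, with treatment. All 10 neuronal markers were detected in every culture. Their summed level was 6573, 5656 and 6407 CPM in vehicle cultures 1, 2 and 3 and 6839, 6214 and 7172 CPM in treated cultures 1, 2 and 3, with Tubb3 the most abundant per kb and none at 0. None of the 10 was called by edgeR. At an unadjusted p under 0.05 it had 4 higher and 1 lower, and at an adjusted p under 0.05 and any fold DESeq2 had 2 and ComBat-seq with limma 7. The 7 satellite glia markers summed to 1601, 945 and 298 CPM in vehicle cultures 1, 2 and 3 and 1439, 919 and 267 CPM in treated cultures 1, 2 and 3. Replicate 3 was far the lowest in both groups, 7 of 7 genes differed by replicate number, and Apoe was the most abundant. None of the 7 was called for treatment by edgeR, which had 1 higher and 4 lower at an unadjusted p under 0.05. At an adjusted p under 0.05 and any fold DESeq2 had 3 and ComBat-seq with limma 4. The 7 markers of myelinating Schwann cells summed to 1019, 760.1 and 592 CPM in vehicle cultures 1, 2 and 3 and 889.6, 648 and 557 CPM in treated cultures 1, 2 and 3, with Pmp22 the most abundant. The part of glial content in the replicate pattern of the receptor genes was not tested.

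With treatment, all 6 markers of cycling cells were called lower. Their sum was 667, 461 and 207 CPM in vehicle cultures 1, 2 and 3 and 227, 234 and 39.0 CPM in treated cultures 1, 2 and 3. Vehicle culture 3 and treated culture 3 were each the lowest of their group, and vehicle culture 3 lay below treated cultures 1 and 2. Mki67 was the most abundant, with a log2 fold change of -1.72 (SE 0.22, edgeR, Benjamini-Hochberg adjusted p = 0.00104). The other 5 were Top2a, Cdk1, Ccnb1, Birc5 and Bub1, and none of the 6 was at 0. Of the 6 fibroblast markers, Col1a1, Col1a2 and Col3a1 were called lower and 0 higher. Their sum was 2138, 2152 and 895 CPM in vehicle cultures 1, 2 and 3 and 1151, 1382 and 303 CPM in treated cultures 1, 2 and 3. Per kb Col1a1 was the most abundant in vehicle but lay behind Col3a1 in treated cultures. Col1a1 had a log2 fold change of -1.62 (SE 0.17, edgeR, Benjamini-Hochberg adjusted p = 0.000547). The 6 mural cell markers summed to 433, 524 and 387 CPM in vehicle cultures 1, 2 and 3 and 424, 505 and 266 CPM in treated cultures 1, 2 and 3. Per kb Acta2 was the most abundant in vehicle and Rgs5 in treated cultures. Acta2 was called lower by edgeR, a call lost with DESeq2 (Benjamini-Hochberg adjusted p = 0.0804). At an unadjusted p under 0.05 edgeR had 2 mural markers higher and 1 lower. The 6 macrophage markers summed to 37.2, 47.1 and 38.1 CPM in vehicle cultures 1, 2 and 3 and 32.1, 43.2 and 27.2 CPM in treated cultures 1, 2 and 3, with C1qa called lower and Cd68 the most abundant. The C1qa call was lost with ComBat-seq and limma (Benjamini-Hochberg adjusted p = 0.0508). It was also lost without both cultures of replicate 3 (log2 fold change -0.41, edgeR, Benjamini-Hochberg adjusted p = 0.0953). The 6 endothelial markers, led by Cdh5, summed to 235, 256 and 281 CPM in vehicle cultures 1, 2 and 3 and 236, 284 and 257 CPM in treated cultures 1, 2 and 3. None was called by edgeR, by DESeq2 or by ComBat-seq with limma, and none had an unadjusted p under 0.05 in edgeR.

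Among neuron types, Tac1, the substance P precursor, was called higher of 4 peptidergic nociceptor markers, Mrgprd of 4 non-peptidergic markers, and Nppb of 3 pruriceptor markers. Gfra2, another non-peptidergic marker, went the other way, with every treated culture below every vehicle culture. Its adjusted p passed and its fold did not (log2 fold change -0.34, SE 0.10, edgeR, Benjamini-Hochberg adjusted p = 0.0466). Without both cultures of replicate 3 the adjusted p did not pass either (edgeR, Benjamini-Hochberg, 0.0756). None of 3 markers of large-diameter neurons was called by edgeR, which had 2 higher at an unadjusted p under 0.05. At an adjusted p under 0.05 and any fold DESeq2 had 0 and ComBat-seq with limma 2. The peptidergic sum, led by Calca, was 717, 747 and 759 CPM in vehicle cultures 1, 2 and 3 and 1012, 875 and 829 CPM in treated cultures 1, 2 and 3. The non-peptidergic sum, led by P2rx3, was 644, 592 and 754 CPM in vehicle cultures 1, 2 and 3 and 675, 572 and 809 CPM in treated cultures 1, 2 and 3. The pruriceptor sum was led by Il31ra in both groups, while per kb Nppb led in treated cultures. This sum was 17.6, 21.2 and 14.6 CPM in vehicle cultures 1, 2 and 3 and 23.6, 20.3 and 21.1 CPM in treated cultures 1, 2 and 3. For large-diameter neurons, led by Nefh, the sum was 1177, 626 and 762 CPM in vehicle cultures 1, 2 and 3 and 1104, 710.4 and 979 CPM in treated cultures 1, 2 and 3, lowest in replicate 2 of each group. No marker of any list was at 0 in all cultures. The smaller treated libraries and the lower levels of cycling and fibroblast markers moved with treatment, as did Chrm4 and Htr1a, and their part in those changes was not tested.

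**Figure D5:**
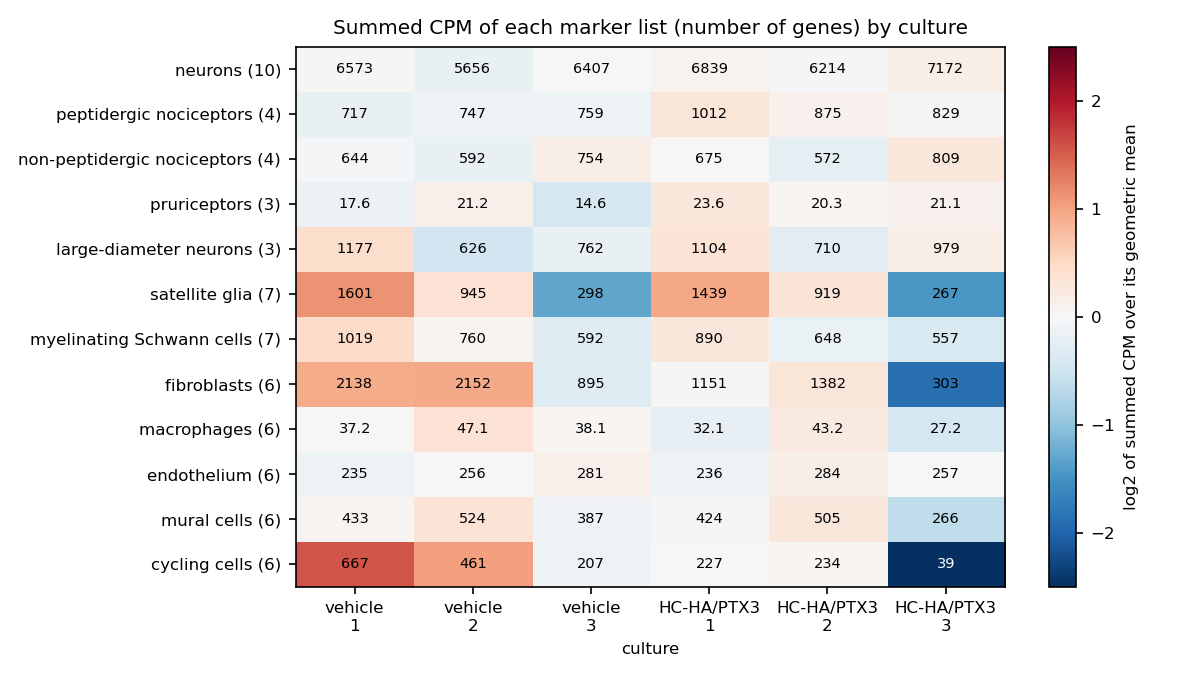
Summed CPM of each marker list (rows, with the number of genes) in each culture (columns); the numbers are the sums and the colour is the log2 of the sum over the geometric mean of its row. Satellite glia markers are lowest in replicate 3 of both groups (298 and 267 CPM), and cycling cell markers are lowest in treated culture 3 (39.0 CPM).

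The other genes of these transmitter systems were followed in lists of receptor partners, scaffolds and transmitter supply. Of 79 tested companion genes, 7 were called lower and 0 higher, against 5.38% and 3.32% of all tested genes. At an unadjusted p under 0.05 edgeR had 8 higher and 19 lower, with no share over all tested genes counted at this p. With the block DESeq2 called 0 higher and 6 lower and limma-voom 0 and 7, and ComBat-seq with limma called 1 higher, Gad2, and 9 lower. Without both cultures of replicate 3, edgeR called 6 of 81 lower and 1 higher, and without the block 0 of 79. Of 28 tested auxiliary and assembly genes, Cacng2 and Cnih2, partners of AMPA receptors, fell. Cnih2 was measured at 7.69, 8.31 and 8.52 CPM in vehicle cultures 1, 2 and 3 and 4.47, 4.80 and 5.94 CPM in the treated cultures 1, 2 and 3. Every treated culture lay below every vehicle culture (log2 fold change -0.69, SE 0.13, edgeR, Benjamini-Hochberg adjusted p = 0.00555). Cacng2, which encodes stargazin, had 12.3, 5.49 and 9.73 CPM in vehicle cultures 1, 2 and 3 and 6.87, 3.88 and 8.30 CPM in the treated cultures 1, 2 and 3. It was lower in each treated culture than in its pair, with overlapping groups (log2 fold change -0.52, SE 0.14, edgeR, Benjamini-Hochberg adjusted p = 0.0294). Lynx1, a modulator of nicotinic receptors, was the most abundant of the list per kb and was not called (log2 fold change 0.11, SE 0.060, edgeR, Benjamini-Hochberg adjusted p = 0.245).

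Of 21 scaffold genes, Shank2 and Nlgn3 fell. Nlgn3, the adhesion protein neuroligin 3, stood at 50.9, 35.4 and 37.0 CPM in vehicle cultures 1, 2 and 3 and 32.1, 23.9 and 25.3 CPM in the treated cultures 1, 2 and 3. The treated cultures lay below the vehicle cultures without overlap (log2 fold change -0.59, SE 0.076, edgeR, Benjamini-Hochberg adjusted p = 0.00112). Shank2, a scaffold of excitatory synapses, had 33.8, 31.3 and 8.64 CPM in vehicle cultures 1, 2 and 3 and 24.9, 20.8 and 5.13 CPM in the treated cultures 1, 2 and 3. It was lower in each pair and lay far lower in replicate 3 of both groups (log2 fold change -0.58, SE 0.10, edgeR, Benjamini-Hochberg adjusted p = 0.00315). Without both cultures of replicate 3 its log2 fold change was -0.499 (edgeR, Benjamini-Hochberg adjusted p = 0.00573), just short of the fold threshold. Gabarap, which binds GABA-A receptors and autophagy membranes, was the most abundant of the list per kb (log2 fold change 0.11, SE 0.068, edgeR, Benjamini-Hochberg adjusted p = 0.301). The median log2 fold change was -0.19 for the scaffolds and -0.11 for the auxiliary genes, against -0.0067 over all tested genes.

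In transmitter supply, Slc1a1 and Slc1a2, both plasma membrane glutamate transporters, fell among 11 glutamate genes. Slc1a2 was measured at 3.85, 2.79 and 2.73 CPM in vehicle cultures 1, 2 and 3 and 2.37, 1.24 and 1.63 CPM in the treated cultures 1, 2 and 3, with every treated culture below every vehicle culture (log2 fold change -0.86, SE 0.18, edgeR, Benjamini-Hochberg adjusted p = 0.0105). Slc1a1 had 4.15, 3.86 and 3.59 CPM in vehicle cultures 1, 2 and 3 and 2.91, 2.30 and 2.49 CPM in the treated cultures 1, 2 and 3, also without overlap (log2 fold change -0.59, SE 0.16, edgeR, Benjamini-Hochberg adjusted p = 0.0278). With DESeq2 the Slc1a1 call was lost (Benjamini-Hochberg adjusted p = 0.0687). Per kb, Slc17a6, a vesicular glutamate transporter, was the most abundant of the list in vehicle and Glul, glutamine synthetase, in treated cultures. Glul had a log2 fold change of 0.28 (SE 0.070, edgeR, Benjamini-Hochberg adjusted p = 0.0198), short of the fold threshold. Of 7 tested genes of GABA and glycine supply, Abat, which breaks down GABA, fell. Abat stood at 39.6, 25.6 and 13.8 CPM in vehicle cultures 1, 2 and 3 and 25.8, 15.8 and 10.4 CPM in the treated cultures 1, 2 and 3. It was lower in each pair, and the groups overlapped since both groups were lowest in replicate 3 (log2 fold change -0.58, SE 0.093, edgeR, Benjamini-Hochberg adjusted p = 0.00275).

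None of 4 chloride transport, 3 tested acetylcholine supply and 5 tested serotonin supply genes was called by edgeR, and none had an adjusted p under 0.05 at any fold. At an unadjusted p under 0.05 edgeR had 1, 1 and 0, all higher, and at an adjusted p under 0.05 and any fold DESeq2 had 0 and ComBat-seq with limma 1, 2 and 1. Ache and Maoa were the most abundant per kb of the acetylcholine and serotonin lists. Ache, which breaks down acetylcholine, had a log2 fold change of 0.044 (SE 0.072, edgeR, Benjamini-Hochberg adjusted p = 0.712), and Maoa, which breaks down serotonin, had a log2 fold change of 0.12 (SE 0.067, edgeR, Benjamini-Hochberg adjusted p = 0.238). Chat, which makes acetylcholine, had 0 counts in all 6 cultures.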

How the data were processed

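The 6 tables deposited by the authors, 3 vehicle and 3 HC-HA/PTX3 cultures, hold raw read counts for 35976 genes each. Per the labels and the methods of the study the reads were paired-end, from ribosome-depleted total RNA (100 ng input), aligned to mm10 with HISAT2 and counted with featureCounts. The file headers name another aligner, RNA STAR, and which one made the tables could not be told. The counting strand was not stated.

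Counts were tested in R 4.3.3 with edgeR 4.0.16 (TMM scaling, filterByExpr by treatment, quasi-likelihood F test, Benjamini-Hochberg over 18277 tested genes), with treatment and replicate number in the model. Calls needed an adjusted p below 0.05 and a log2 fold change beyond 0.5 either way. The batches in the methods are not mapped to the labels, so the replicate number stood in for them. It was taken as a pairing because cultures sharing a number departed from the means of their groups together, with a correlation over 0.1 in each of the 3 pairs (r = 0.631, 0.536 and 0.774, against -0.613 to 0.148 between different numbers, across genes that are not independent replicates). Alternatives were the fit without the block, DESeq2 1.42.0, limma-voom (limma 3.58.1), ComBat-seq (sva 3.50.0) then limma, upper-quartile scaling, raw library sizes, other count filters, no fold threshold, and fits without single cultures or pairs. A test of the replicate number was added after the values were seen. The code was tested on simulated data.

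Levels are CPM on TMM-scaled library sizes, and between genes these per kb of joined GENCODE M21 exons. Promoter sequences are from RefSeq (GRCm38.p6). Members named with values are those called in either fit, the 2 most abundant per kb and the 2 with the smallest p of each class, and those at the edge of the count minimum. A minimum of 5 or 20 counts would keep 73 or 61 genes. Companion and marker lists were fixed by gene name, and genes named from them are mostly those called and the most abundant. Gfra2 is named since it moved against a called gene of its list. Some genes that meet these rules are counted but not named. Members and lists were chosen with earlier results of these data known.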

Additional observations from a re-analysis of the deposited data

How the results depend on the processing

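Without the replicate block edgeR called 0 genes in all, 0 higher, 0 lower, 0 receptor genes and 0 companion genes, against 1591, 607, 984, 2 and 7 with it. The cause was not tested. Dropping the fold threshold gave 3505, 1402, 2103, 7 and 15. DESeq2 called 360 genes higher and 1 receptor gene, and ComBat-seq then limma 1012 genes higher. Without single cultures or both cultures of a replicate number, the calls ranged over 878 to 2010 in all, 248 to 783 higher, 630 to 1227 lower, 1 to 3 for receptor genes and 4 to 7 for companion genes. Genes that differed by replicate number ranged over 2271 to 5455 in all and 18 to 40 for receptor genes.

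Of the log2 fold changes of the named receptor genes under the alternatives, 500 kept direction and side of the threshold, 20 turned, 11 became stronger and 9 weaker. Those that turned lay near 0 both ways. Glrb was -0.0042 with the block, 0.0022 without it, 0.028 with upper-quartile scaling, 0.011 with raw library sizes, 0.00022 with at least 10 counts in every culture, and -0.030 to 0.017 without single cultures or pairs. Chrnb2 was 0.0060 with upper-quartile scaling and -0.10 to 0.023 without cultures or pairs. The same fits gave -0.00049 to 0.045 for Grin1, -0.065 to 0.10 for Htr1d and -0.020 to 0.11 for Htr3a. The cause was not tested. The replicate block changed no other call among the named receptor genes than those of Chrm4 and Htr1a. Of the class medians, 172 stayed within the spread between pairs and 15 moved, the latter all towards or past 0. Genes near the count minimum, such as Grin2c and Grin3b, were measured on few counts.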
